A study of Mus musculus with 6 samples.

Results

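The Hox genes are homeobox genes that lie in 4 clusters in the mouse genome: Hoxa on chromosome 6, Hoxb on chromosome 11, Hoxc on chromosome 15 and Hoxd on chromosome 2. They were taken here as the probes of a promoter tiling array whose gene name, or whose second name at a divergent promoter, is Hox followed by a cluster letter and a paralog number. The rule gave 1245 probes of 474380 and 33 genes of 17038: 10 in Hoxa, 7 in Hoxb, 8 in Hoxc and 8 in Hoxd. Other genes of the clusters were not analysed here. The array annotation placed 723 of the probes in promoters, 414 inside genes, 91 in divergent promoters shared with another transcript and 17 downstream of a gene.

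Chromatin immunoprecipitation of SMAD1/5, SMAD2 and SMAD4 was measured in R1, an embryonic stem cell line of the mouse, kept undifferentiated without feeders in knockout serum replacement and leukemia inhibitory factor. Each antibody had 1 sample, hybridised to a pair of arrays that divide the genome between them, and the 6 arrays had no untreated or control antibody arm. The immunoprecipitate was labelled with Cy5 and the whole cell extract, the input, with Cy3. There was 1 biological replicate per antibody and no dye swap, so a difference between genes or antibodies has no replicate check, no test was run, and every SD below is the spread over probes of a single hybridisation. The Hoxa and Hoxd probes lie on array 1 and the Hoxb and Hoxc probes on array 2.

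Hox proteins are transcription factors that give cells along the body axis their regional identity. Genes of low paralog number lie at the 3′ end of a cluster and are switched on earlier and more anteriorly than genes of high number, and in embryonic stem cells the clusters are largely silent and covered by Polycomb marks. SMAD1 and SMAD5 carry BMP signals, SMAD2 carries Activin and Nodal signals, and SMAD4 is the partner that both branches share. BMP and Nodal signals act on posterior patterning, where Hox genes are switched on.

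The quantity reported is the log2 ratio of immunoprecipitate over input, centred on the median of its array, so that 0 is the level of a typical probe on that array. Windows were the means of all probes within 500 bp of a probe, with at least 3 probes, and their z is the distance from the array's median window in units of a robust SD taken from the lower side of the windows. Enriched windows needed a z of 4 or more and at least 2 probes above the array's 95th percentile; low windows needed a z of -4 or less and at least 2 probes below the 5th percentile. On the SMAD2 and SMAD4 arrays a z of 4 stood for a ratio 4.68- to 4.94-fold above the array median, and on the SMAD1/5 arrays for 18.0- and 24.4-fold, because the SMAD1/5 ratios were more scattered (SD over all probes of 1.93 and 1.76, against 0.91 to 0.99 on the other arrays).

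No Hox gene had an enriched window with any antibody, and none had a low one. Among all genes with a window, 0% were enriched with SMAD1/5, 0.0658% with SMAD2 and 2.49% with SMAD4, and 2.62%, 0.335% and 0.0478% had a low window, rates at which few of 33 genes would be called. With SMAD1/5 the highest z of any window on the arrays was 3.18. No gene could therefore meet the bound of 4, and the count of 0 says nothing particular about Hox genes. The Hox genes were covered more densely than others, with a median of 39 windows per gene against 26 with SMAD1/5, and so had more chances of an extreme window. At a z of at least 3, Hox genes numbered 0 with SMAD1/5 (0.0359% of all genes), 2 with SMAD2 (1.7% of all genes) and 4 with SMAD4 (13% of all genes). At a z of at least 2 they numbered 6 with SMAD1/5, or 18.2% against 5.94% of all genes; 5 with SMAD2, or 15.2% against 18.4%; and 9 with SMAD4, or 27.3% against 40.1%. Counting by window takes out the number of windows per gene. By that count 0.489% of Hox windows reached a z of 2 with SMAD1/5 against 0.41% of all windows. With SMAD2 the shares were 1.07% against 1.67%, and with SMAD4 4.07% against 5.69%. The z was not scaled for the number of probes in a window, so a window of few probes reaches an extreme z more easily.

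On the low side the Hox genes lay on either side of the background. A lowest window z of -2 or less was found for 12 Hox genes with SMAD1/5, or 36.4% against 32.2% of all genes; for 6 with SMAD2, or 18.2% against 30%; and for 11 with SMAD4, or 33.3% against 18.2%. By window the shares were 2.85% against 3.86%, 1.32% against 3.54% and 2.12% against 1.75%. Probe by probe, 30.2%, 14% and 15.8% of Hox probes had a log2 ratio above 1 with SMAD1/5, SMAD2 and SMAD4, against 27.5%, 12.7% and 16.5% of all probes, and 30.7%, 12.7% and 11.2% lay below -1, against 31%, 13.5% and 10.1%. Of the 33 genes, Hoxc11 alone (3.03%) reached a z of 2 with all 3 antibodies, against 0.766% of all genes, and 17 (51.5%) reached it with none, against 46.9%. Each of these z values is that of a gene's highest window, which need not lie at the same place with each antibody. The probes of the highest SMAD4 window of Hoxc11 (below) all had SMAD2 ratios below the array median.

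**Figure D1:**
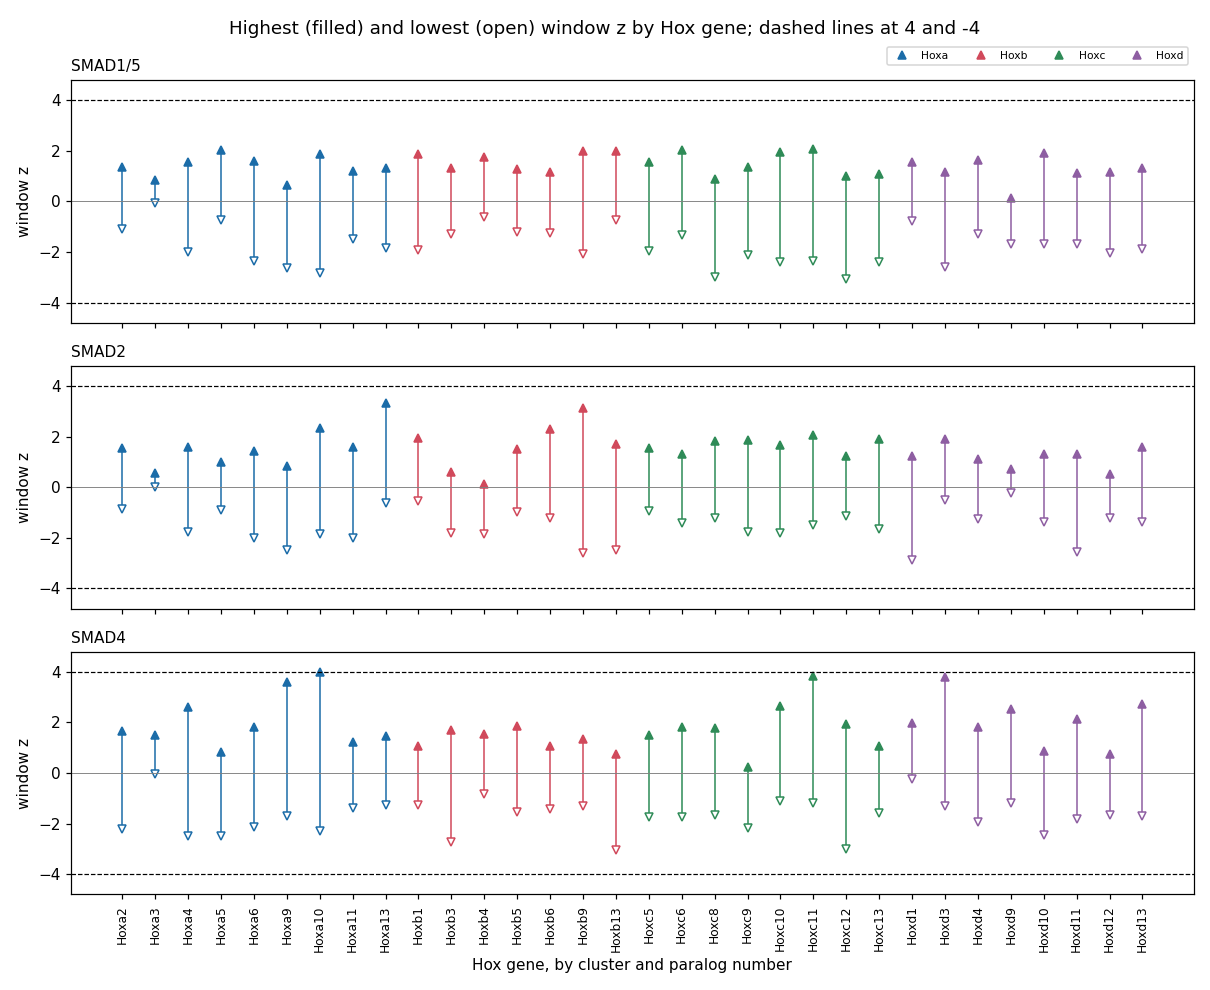
Highest (filled) and lowest (open) window z of 32 Hox genes, grouped by cluster, with 1 panel per antibody; the y axis is in robust SDs of the array's windows and the dashed lines are the call thresholds at 4 and -4. The SMAD4 windows of Hoxa10 (3.99), Hoxc11 (3.85) and Hoxd3 (3.79) lie closest to a threshold, and all of the SMAD1/5 maxima lie at or below 2.07.

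By z, the highest windows of the Hox genes were found with SMAD4. Over all windows the highest z was also found with SMAD4 (6.58, against 5.52 with SMAD2 and 3.18 with SMAD1/5). In log2 terms the SMAD1/5 window of Hoxa5 (mean of 2.23) was as high as these. The SMAD4 window of Hoxa10, a posterior gene of limb and reproductive tract patterning, was centred 2660 bp upstream of the annotated start (array annotation 6:52200620-52201412). No source used here names the genome build of that annotation. Its 6 probes had SMAD4 log2 ratios of 1.89, 1.76, 1.77, 2.47, 2.68 and 3.23 from the start outwards, a mean of 2.30 ± 0.59 (SD over probes) and a z of 3.99. All 6 probes were high with SMAD4, and with the other antibodies the window mean was -0.17 with SMAD2 and -0.23 with SMAD1/5. The SMAD4 input of these probes was low, at -2.04 on average relative to the array median on the log2 scale, and the SMAD4 immunoprecipitate was near the median, at 0.15. The highest SMAD4 window of Hoxa10 crossed the threshold with bright probes only (z of 4.01) and with chromosome medians as centre (4.00), whereas with the mean of the 3 inputs no Hox window passed 2.10.

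Hoxc11, a posterior gene expressed in the hindlimb and tail, had its SMAD4 window 4326 bp upstream of the start (15:102935963-102936803 in the array annotation). The 4 probes read 2.64, 1.94, 2.10 and 2.15, with a mean of 2.21 ± 0.30 and a z of 3.85, the least scattered of the high windows. Their input lay at -2.72 and their immunoprecipitate at -0.61, so both channels were below the array median. The same window had a mean of 1.14 with SMAD1/5 and -0.55 with SMAD2. The highest SMAD1/5 window of any Hox gene was next to it, from 4850 to 5285 bp upstream of the Hoxc11 start (15:102935368-102935859). Its probes read 1.82, 3.06 and 1.47, with a z of 2.07, and there SMAD4 had a mean of 1.90 and a z of 3.30.

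The Hoxd3 window lay 1526 bp upstream of its start (2:74585643-74586533). Hoxd3 is an anterior gene needed for the cervical vertebrae. The 7 probes ranged from 0.64 to 4.34 with SMAD4, with a mean of 2.19 ± 1.24 and a z of 3.79. Their input was the lowest of these windows, at -3.16, with the immunoprecipitate at -1.09. The SMAD2 input was low at the same place (-2.25), and the SMAD2 window mean was 1.02. With SMAD1/5 the same probes read 1.55, 1.84, 1.98, 1.54, -0.60, -1.45 and 2.15.

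Hoxa9, a posterior gene with a large role in blood stem cells, came next and was the only gene of the 4 with its window at the start itself, centred 276 bp upstream (6:52190623-52191389). Its 4 probes ranged from 1.10 to 3.55, with a mean of 2.08 ± 1.04, a z of 3.61, an input of -2.67 and an immunoprecipitate of -0.70. With SMAD2 and SMAD1/5 the same window was below the median, at -0.95 and -0.72. Only 1 of the 4 probes was above the 95th percentile, so the window would not have met the probe rule for a call.

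With SMAD2 the highest windows belonged to Hoxa13 and Hoxb9. Hoxa13, the most posterior Hoxa gene, is needed for digits and the urogenital tract. Its highest window held probes from 5092 to 5459 bp upstream (6:52229308-52229730). They read 2.50, 1.31, 2.78 and 1.06, with a mean of 1.91 ± 0.86 and a z of 3.33. SMAD1/5 and SMAD4 were above the median there too, with means of 1.40 and 0.76. The Hoxb9 window, centred 1333 bp upstream (11:96378710-96379608), had probes of 1.57, 1.17, 2.52, 2.03 and 1.43, a mean of 1.75 ± 0.53 and a z of 3.12; SMAD1/5 had a mean of 1.36 and SMAD4 of 0.06. Both SMAD2 windows had a low SMAD2 input, of -1.84 and -1.79, and an immunoprecipitate close to the median, of 0.17 and 0.03. Hoxa10 followed, with a mean of 1.35 ± 0.33 over 6 probes inside the gene, 1943 bp after the start, and a z of 2.33. With the mean of the 3 inputs the highest z of Hoxa13, Hoxb9 and Hoxa10 was 0.82, 1.40 and 1.47, and Hoxd13 was then the highest Hox gene, at 2.35.

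With SMAD1/5 the highest window of Hoxc11 (above) had a z of 2.07 and that of Hoxc6 a z of 2.02. Hoxc6, expressed in the thorax, had probes of 2.39, 0.93 and 2.87 from 314 bp upstream to 65 bp after the start. Hoxa5, needed for the lung and cervical skeleton, followed at 2.02 with a mean of 2.23 ± 0.96 over 5 probes centred 786 bp upstream. Hoxd10, a hindlimb and motor neuron gene, had its highest window over the start, 27 bp upstream, with 2.11 ± 0.62 over 4 probes and a z of 1.91. With the mean of the 3 inputs the highest z of Hoxc11 rose to 3.06 and that of Hoxc6 fell to 1.68. Hoxa13 was then the highest Hox gene with SMAD1/5, at 3.08. Hoxb13, at 2.01 here, was highest under normexp background correction (5.96), loess (3.48), the authors' values (3.90) and removal of the input trend (2.67).

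The lowest windows were deepest with SMAD1/5 in log2 terms. At Hoxc12 the 7 probes around 778 bp after the start (15:102923390-102924242) had a mean of -3.36 ± 3.42 and ranged from -8.39 to 0.77 (z of -3.07). The 6 probes around 2968 bp upstream of Hoxc8 (15:102973342-102974200) read -4.34, -5.35, 0.24, -1.70, -3.29 and -5.08, a mean of -3.25 ± 2.17 (z of -2.97). The 5 probes over the Hoxa10 start (6:52198181-52198931) read -1.85, -2.15, -2.55, -6.25 and -5.16, a mean of -3.59 ± 1.98 (z of -2.83). All 5 Hoxa10 probes were low with SMAD1/5, whereas the same probes had a mean of 0.79 with SMAD2 and -0.29 with SMAD4. The low ratio went with a bright input: the SMAD1/5 input of the Hoxa10 window was 5.72 above the array median while its immunoprecipitate was 1.45 above, and the input of the same probes was -0.10 with SMAD2 and 0.66 with SMAD4.

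With SMAD2, low windows lay at Hoxd1 (mean of -1.61 ± 0.60, 3 probes, 5048 to 5454 bp upstream in the promoter shared with 6720416L17Rik) and Hoxb9 (-1.40 ± 1.19, 3 probes, 3438 to 3783 bp upstream), at z values of -2.90 and -2.61. With SMAD4 they were at Hoxb13 (-1.62 ± 0.41, 3 probes, 3754 to 4204 bp upstream), Hoxc12 (-1.60 ± 0.62, 4 probes, 4919 to 5445 bp upstream) and Hoxb3 (-1.43 ± 0.21, 3 probes, 2179 to 2477 bp after the start), at -3.06, -3.01 and -2.72. The SMAD4 input of these 3 windows was high, at 3.42, 2.33 and 2.27. Hoxb9 thus held both 1 of the 3 highest and 1 of the 3 lowest SMAD2 windows of the Hox genes, in the same upstream region. With the mean of the 3 inputs the lowest z of Hoxd1 with SMAD2 was -0.98, that of Hoxb13 with SMAD4 was -1.12, and with SMAD1/5 those of Hoxc8 and Hoxa10 were -0.98 and -1.24. The lowest z stayed at -2.16 for Hoxb9 with SMAD2 and -2.10 for Hoxc12 with SMAD1/5. With SMAD4 it was -1.86 for Hoxc12 and -1.80 for Hoxb3.

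**Figure D2:**
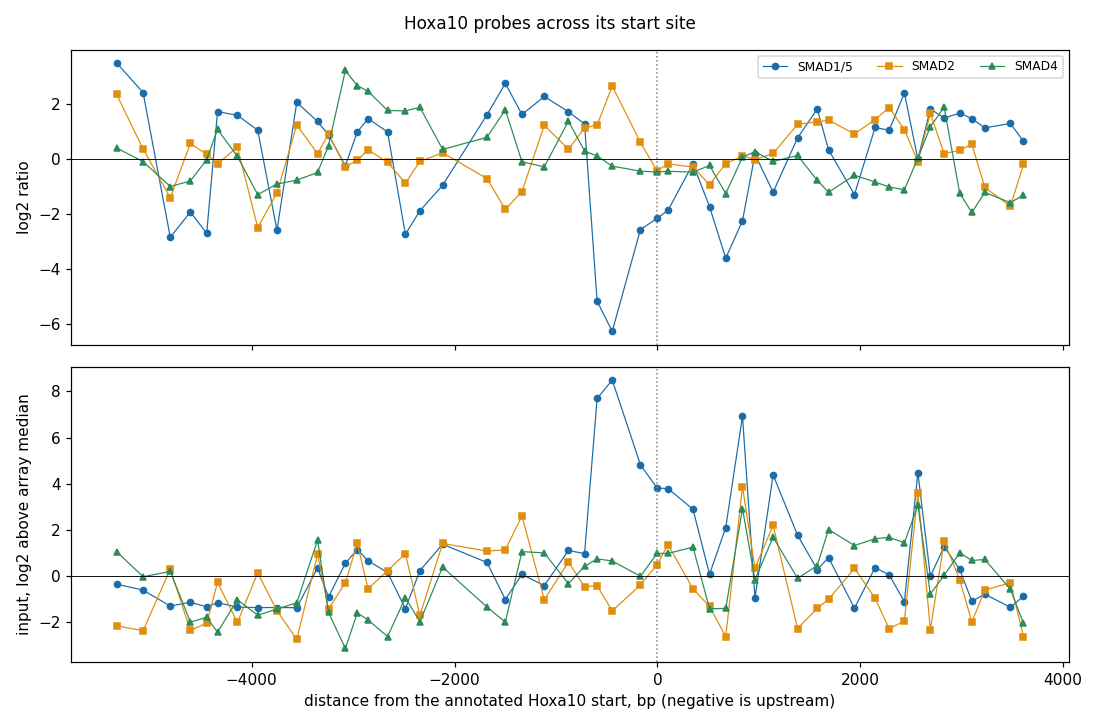
Hoxa10 probes by distance from the annotated start (x axis, bp), with the log2 ratio of immunoprecipitate over input above and the log2 input level relative to the array median below, for SMAD1/5 (circles), SMAD2 (squares) and SMAD4 (triangles). SMAD1/5 drops to -6.25 at the probe 445 bp upstream, where its input reaches 8.49, and the 6 SMAD4 probes from 2341 to 3076 bp upstream lie between 1.76 and 3.23 over low SMAD4 input.

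Bright input spots of this kind were common on the SMAD1/5 arrays. A bound of 4 log2 units above the array median, chosen after the values were seen, was passed by the SMAD1/5 input of 107 Hox probes (8.59%, against 9.90% of all probes), in 30 of the 33 genes. It was passed by 8 Hox probes with SMAD2 (0.643%, against 0.900%) and 2 with SMAD4 (0.161%, against 0.506%). On those 107 probes the median input was 5.64 above the array median with SMAD1/5, 1.29 with SMAD2 and 1.05 with SMAD4, and the median immunoprecipitate level was 1.50, 1.19 and 0.62. The median log2 ratio of those probes was -3.51 with SMAD1/5, 0.02 with SMAD2 and -0.13 with SMAD4. The 107 probes were picked by their SMAD1/5 input. Their high input and low ratio with SMAD1/5, beside the other antibodies, therefore follow at least in part from that choice. Ratios of probes picked by SMAD2 or SMAD4 input were not compared. The probes were short, with a median of 48 bases against 54 over all Hox probes. The 3 inputs are the same kind of whole cell extract DNA. Whether the bright spots come from the DNA, the labelling or the scan was not tested.

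In the extreme windows the input lay opposite to the ratio in most Hox genes, as in all genes, while the immunoprecipitate differed between antibodies. In the highest SMAD4 windows of the 33 genes, the input was below the array median in 27 (81.8%) and the immunoprecipitate above it in 14 (42.4%); over all genes the shares were 81.1% and 50.6%. With SMAD2 they were 27 and 23 of 33 (81.8% and 69.7%, against 80.4% and 55.6% of all genes), and with SMAD1/5 25 and 26 (75.8% and 78.8%, against 67.0% and 71.2%). In the lowest windows the input was above the median in 29, 27 and 28 of the 33 genes with SMAD1/5, SMAD2 and SMAD4, against 84.6%, 73.3% and 72.6% of all genes. The immunoprecipitate was below the median there in 23, 16 and 17, against 58.9%, 56.2% and 52.5%, so with SMAD2 and SMAD4 it lay about as often above as below. Across the Hox probes, input and log2 ratio had a Pearson correlation of -0.61, -0.51 and -0.62 (n = 1244, 1230 and 1245 probes), which in part follows from the input being the denominator. The input's part in any high or low window was not tested.

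**Figure D3:**
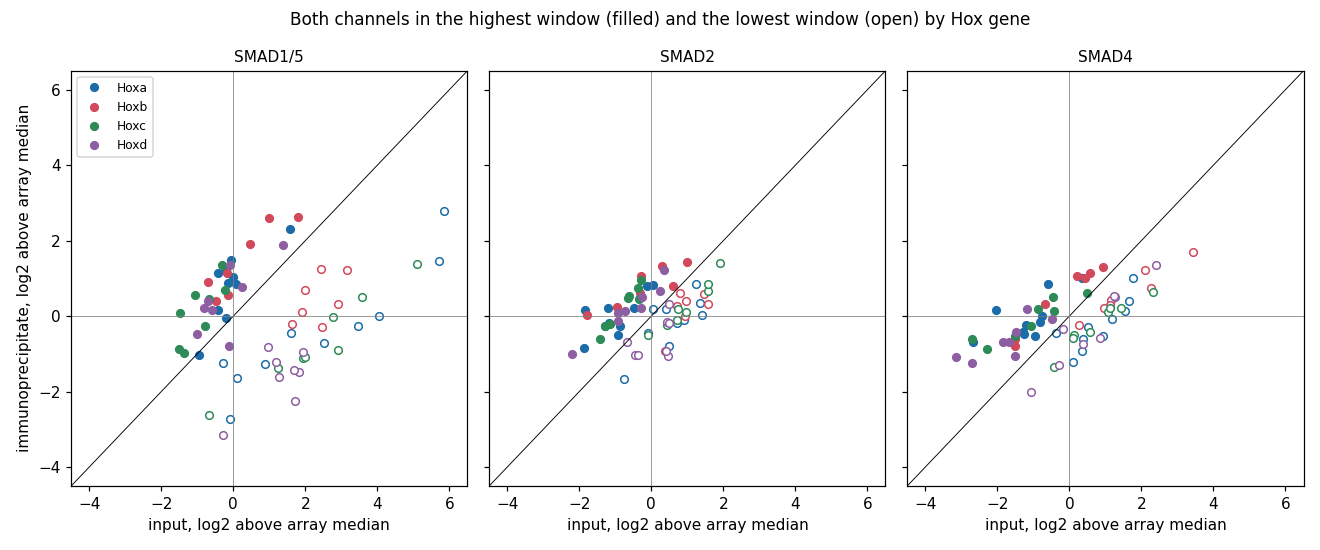
Level of the input (x axis) and of the immunoprecipitate (y axis), each in log2 units relative to its array median, averaged over the highest window (filled) and the lowest window (open) of each of the 33 Hox genes, coloured by cluster. Points on the diagonal have a ratio at the array median; the SMAD4 input lies below 0 in 27 of 33 highest windows and above 0 in 28 of 33 lowest windows.

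The SMAD1/5, SMAD2 and SMAD4 ratios of a Hox probe bore little relation to each other. Pearson's r over the Hox probes was 0.01 for SMAD1/5 and SMAD2, 0.04 for SMAD1/5 and SMAD4 and 0.03 for SMAD2 and SMAD4 (n = 1229 to 1244 probes that share position, length and base composition). The immunoprecipitate channels alone correlated at 0.53, 0.55 and 0.75 and the input channels at 0.44, 0.36 and 0.45, so what the arrays shared was the level of each probe and not the ratio.

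By cluster, the median log2 ratio of Hoxa, Hoxb, Hoxc and Hoxd was 0.27, 0.27, -0.08 and -0.12 with SMAD1/5. Over all Hox probes it was 0.07, with interquartile bounds of -1.34 and 1.28, and the interquartile ranges of the 4 clusters overlapped. The Hoxb value equals that of its chromosome: all chromosome 11 probes had a median of 0.28, and with chromosome medians as the centre Hoxb stood at -0.01. Chromosome 11 was brighter than the array median in both channels with every antibody (input of 0.43, 0.49 and 0.69 with SMAD1/5, SMAD2 and SMAD4), as Hoxb was (0.42, 0.40 and 0.77). Hoxa stood at 0.31 after the same step, with a chromosome 6 median of -0.04, but at -0.03 when the mean of the 3 inputs replaced its own, where Hoxd stood at 0.03. With SMAD2 the medians were 0.11, 0.07 and 0.06 in Hoxb, Hoxc and Hoxd and at the array median in Hoxa. Under normexp the SMAD2 medians of Hoxb and Hoxc turned to -0.21 and -0.06, and that of Hoxc was -0.01 with chromosome medians as centre. With SMAD4 the medians of Hoxa to Hoxd were -0.14, -0.08, -0.08 and 0.03. With the mean of the 3 inputs those of Hoxa, Hoxb and Hoxd turned to 0.02, 0.20 and -0.11, and with the trend on the input removed Hoxb stood at 0.05 and Hoxd at -0.09. Hoxc with SMAD1/5, Hoxd with SMAD2 and Hoxc with SMAD4 kept their sign under the alternatives tried. The total for Hox probes was 0.04 with SMAD2 and -0.08 with SMAD4.

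Other developmental homeobox genes (48 genes of families such as Pax, Lhx, Nkx, Irx and Dlx, 1964 probes with SMAD1/5) had medians of -0.15, 0.05 and -0.09 with the 3 antibodies. Olfactory receptor genes, 881 genes of another silent, clustered family, had -0.29, -0.18 and -0.17. The Hox medians beside these were 0.07, 0.04 and -0.08, above both sets with SMAD1/5 and close to the homeobox set with the others. Whether these medians differ could not be tested with 1 sample per antibody. Olfactory receptor probes were dim in both channels (SMAD4 input of -1.41 and immunoprecipitate of -1.59, against 0.15 and 0.02 for Hox probes).

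**Figure D4:**
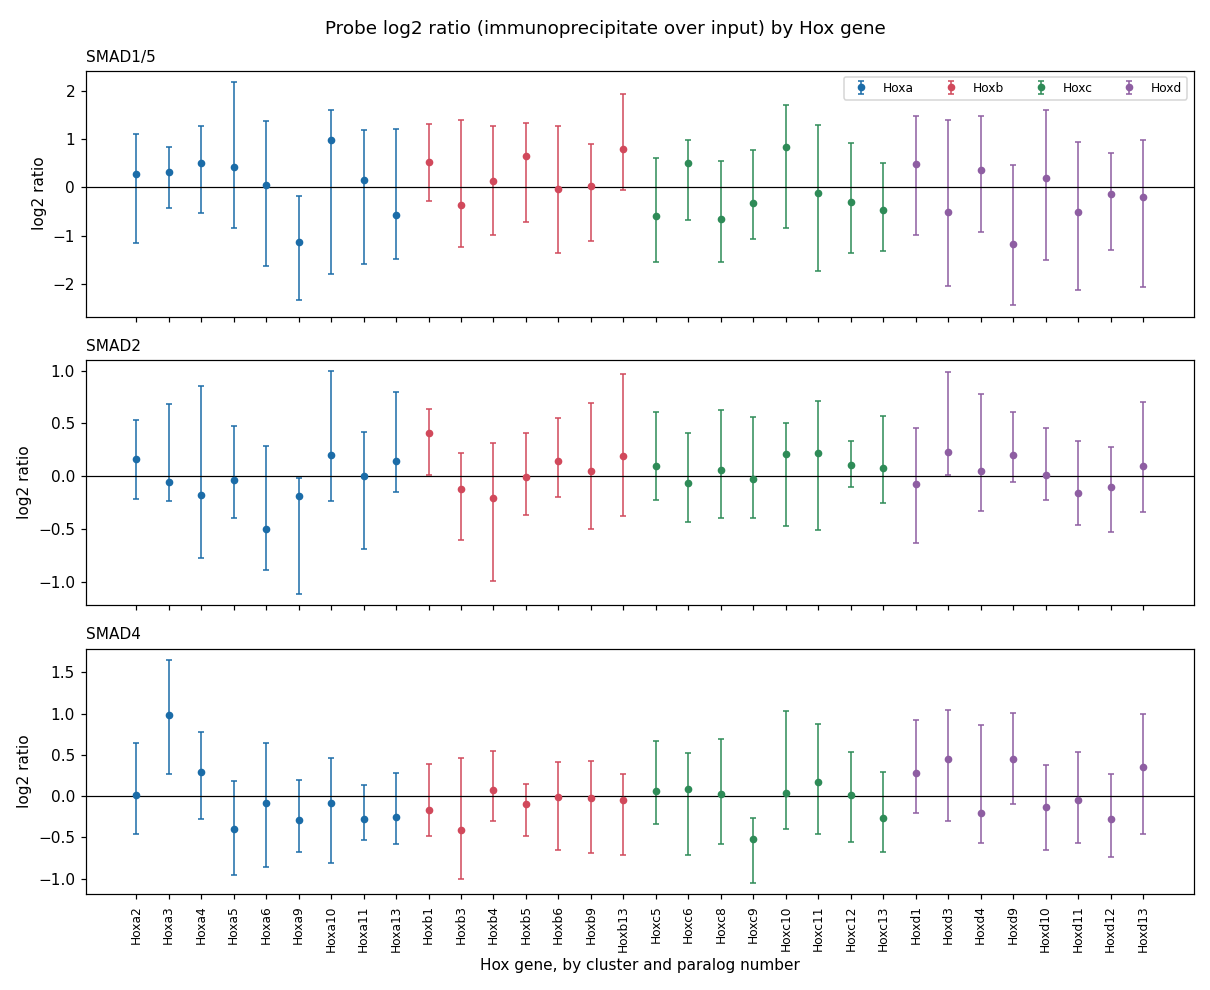
Median log2 ratio of immunoprecipitate over input of the probes of 32 Hox genes (points) with the 25th to 75th percentile of its probes (bars), by cluster and paralog number, 1 panel per antibody with its own y scale. Gene medians run from -1.16 to 0.99 with SMAD1/5, from -0.50 to 0.41 with SMAD2 and from -0.52 to 0.99 with SMAD4, and most bars cross 0.

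Gene by gene, SMAD1/5 medians ran from -1.16 at Hoxd9 to 0.99 at Hoxa10, beside a typical SD over the probes of a gene of 1.82. In Hoxa the extremes were Hoxa10 and Hoxa9 (-1.14 ± 1.84, 24 probes), neighbours on the chromosome. In Hoxb they were Hoxb13 (0.79 ± 1.45, 37 probes), a gene of the tail and prostate, and Hoxb3 (-0.36 ± 1.57, 22 probes), a hindbrain gene. In Hoxc they were Hoxc10 (0.84 ± 1.90, 53 probes), a hindlimb gene, and Hoxc8 (-0.65 ± 1.85, 39 probes), a gene of the thoracic skeleton. In Hoxd they were Hoxd1 (0.49 ± 1.69, 37 probes), which acts in sensory neurons, and Hoxd9 (-1.16 ± 2.09, 26 probes), which acts in the limb and lumbar region. Hoxa10 had the highest gene median of the Hox genes and 1 of their 3 lowest SMAD1/5 windows, which covered 5 of its 51 probes.

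With SMAD2 the extremes by cluster were Hoxa10 (0.20) and Hoxa6 (-0.50 ± 0.94, 40 probes), Hoxb1 (0.41 ± 0.89, 33 probes) and Hoxb4 (-0.20), Hoxc11 (0.22) and Hoxc6 (-0.07), and Hoxd3 (0.23) and Hoxd11 (-0.16). Hoxb1, a gene of the hindbrain, had the highest SMAD2 median of the 33. With SMAD4 they were Hoxa3 (0.99 ± 0.91, only 8 probes) and Hoxa5 (-0.40), Hoxb4 (0.08) and Hoxb3 (-0.41), Hoxc11 (0.17) and Hoxc9 (-0.52 ± 0.61, 32 probes), and Hoxd9 (0.45) and Hoxd12 (-0.27). Hoxa2 and Hoxc10 had a positive median with all 3 antibodies, Hoxa9, Hoxb3, Hoxc9, Hoxd11 and Hoxd12 a negative one with all 3, and the other 26 genes had mixed signs. Over all genes 13.8% were positive with all 3 antibodies and 14.4% negative, beside 6.06% and 15.2% of the Hox genes.

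Paralog number bore a weak relation to the values. Pearson's r between paralog number and gene median was -0.25 with SMAD1/5, 0.11 with SMAD2 and -0.20 with SMAD4 (Spearman's rho of -0.25, 0.17 and -0.16; 33 genes, which share arrays and neighbours). Between paralog number and the highest window z of a gene it was -0.15, 0.31 and 0.04 (rho of -0.17, 0.30 and -0.04). Probes of paralogs 1 to 3 had SMAD1/5, SMAD2 and SMAD4 medians of 0.15, 0.12 and 0.02, those of paralogs 4 to 8 had 0.15, 0.02 and -0.04, and those of paralogs 9 to 13 had -0.04, 0.04 and -0.11. Not every paralog group was covered: groups 2 and 8 held 1 measured gene each, and the group between 6 and 8 held none. Adjacent paralog groups could lie further apart than the ends: with SMAD1/5, paralog group 9 had a median of -0.65 (127 probes, 4 genes) and group 10 had 0.66 (156 probes, 3 genes). The members of group 9 ranged from -1.16 at Hoxd9 to 0.02 at Hoxb9 and those of group 10 from 0.20 at Hoxd10 to 0.99 at Hoxa10. With SMAD2 these groups had -0.01 and 0.12, and with SMAD4 -0.18 and -0.08.

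Around the start sites the Hox probes followed the profile of all probes with some departures. With SMAD1/5 the mean ratio in the 500 bp after the start was -0.58 in Hox probes and -0.57 in all probes, but between 500 and 1000 bp it was -1.10 ± 0.23 (SE over 83 probes of Hox genes) against -0.20 for all probes. By gene, 8 of 31 Hox genes (25.8%) had a mean above 0 there, against 48.7% of all genes, and the median of gene means was -0.70 against -0.05. The lowest was Hoxc12 at -5.33. The Hox input was 1.31 above the array median in that bin against 0.71 for all probes, and the immunoprecipitate was at -0.36 against -0.05. With SMAD2, the bin from 1000 to 2000 bp was higher in Hox genes, at 0.31 ± 0.07 (151 probes) against 0.01, and 24 of 30 Hox genes (80.0%) had a mean above 0 against 51.2% of all genes, with Hoxb6 highest at 1.25. There the immunoprecipitate stood at 0.46 against -0.01 and the input at 0.08 against -0.10. With SMAD4, the bin from 2000 to 3000 bp was lower, at -0.18 ± 0.11 (80 probes) against 0.18, with 9 of 27 Hox genes (33.3%) above 0 against 54.6%. These are the widest gaps of 9 bins per antibody, picked after the values were seen, and probes of a gene are not independent.

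The SMAD4 input showed a further difference at the starts. Within 500 bp upstream it averaged -0.21 in Hox probes against 0.32 in all probes, and within 500 bp after the start 0.12 against 0.51, and the SMAD4 immunoprecipitate was lower than in all probes in the same bins (-0.17 against 0.17 and 0.16 against 0.42). The ratio there was 0.15 ± 0.12 and 0.14 ± 0.09 against -0.04 and 0.02. Single genes were spread widely at the start: in the 500 bp upstream, gene means of SMAD4 ran from -1.30 at Hoxc12 to 2.77 at Hoxa9.

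**Figure D5:**
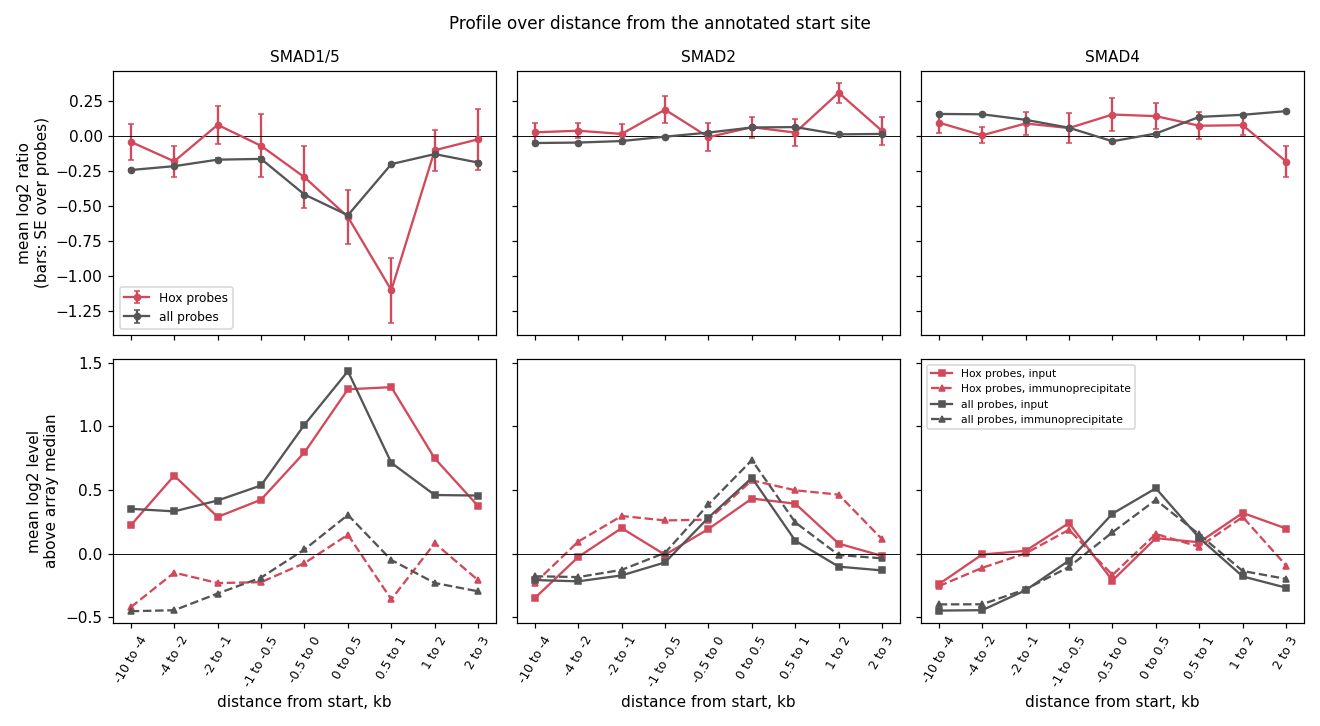
Mean log2 ratio of immunoprecipitate over input (upper row; bars are the SE over probes) and mean log2 level of each channel relative to the array median (lower row) by distance from the annotated start, in kb, for Hox probes (red) and all probes (grey), with 1 column per antibody. The SMAD1/5 ratio of Hox probes is lowest at 0.5 to 1 kb after the start (-1.10), and the SMAD2 ratio is highest at 1 to 2 kb (0.31).

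SMAD proteins bind short motifs, and the sequences at the starts are shown for the genes with high windows. The RefSeq promoter table (GRCm38.p6, 250 bases before to 50 after a start) held 20 promoters of 18 of the 33 genes. Hoxa5, Hoxa13 and Hoxa10 are shown as the genes of that table with the highest SMAD1/5, SMAD2 and SMAD4 window, and Hoxd10 and Hoxa9, chosen after their values were seen, because their highest SMAD1/5 and SMAD4 windows lay over the start. The highest windows of Hoxa5, Hoxa13 and Hoxa10 lay further upstream (above), so for these 3 the sequence does not cover the window. Within a cluster, the spacing of these 5 starts matched that of the array's starts to within 48 bp. Hoxd3, Hoxa3, the second entry of Hoxa10 and 1 entry of Hoxd11 were off by 31861, 12131, 5867 and 2761 bp, and are not shown. Capitals mark GGCGCC, a GC element bound by SMAD1/5 complexes, and CAGAC, an extended SMAD box, on either strand.
Hoxa10 (6:52234890-52235189, minus strand): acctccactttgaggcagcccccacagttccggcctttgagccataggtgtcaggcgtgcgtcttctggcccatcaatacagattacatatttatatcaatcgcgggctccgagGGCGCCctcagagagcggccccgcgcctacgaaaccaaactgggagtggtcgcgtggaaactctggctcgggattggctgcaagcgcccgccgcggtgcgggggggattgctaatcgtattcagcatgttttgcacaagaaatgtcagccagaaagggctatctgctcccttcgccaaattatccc
Hoxa9 (6:52227321-52227620, minus strand): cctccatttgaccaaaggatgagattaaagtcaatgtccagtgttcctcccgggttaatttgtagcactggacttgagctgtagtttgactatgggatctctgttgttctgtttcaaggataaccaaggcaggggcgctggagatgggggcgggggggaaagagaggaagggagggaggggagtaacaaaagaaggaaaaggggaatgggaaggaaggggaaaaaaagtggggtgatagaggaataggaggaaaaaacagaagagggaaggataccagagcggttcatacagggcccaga
Hoxa13 (6:52260831-52261130, minus strand): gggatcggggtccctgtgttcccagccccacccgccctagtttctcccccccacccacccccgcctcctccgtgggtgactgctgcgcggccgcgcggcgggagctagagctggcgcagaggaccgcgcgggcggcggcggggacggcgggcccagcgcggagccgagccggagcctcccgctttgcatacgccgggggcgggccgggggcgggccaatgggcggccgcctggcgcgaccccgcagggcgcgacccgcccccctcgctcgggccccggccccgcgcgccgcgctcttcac
Hoxa5 (6:52204538-52204837, minus strand): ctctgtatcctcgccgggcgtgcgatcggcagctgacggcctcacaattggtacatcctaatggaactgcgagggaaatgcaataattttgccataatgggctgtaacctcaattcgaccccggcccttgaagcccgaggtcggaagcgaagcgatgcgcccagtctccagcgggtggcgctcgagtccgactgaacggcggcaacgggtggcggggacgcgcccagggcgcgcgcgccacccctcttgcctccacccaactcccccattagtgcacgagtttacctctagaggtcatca
Hoxd10 (2:74691641-74691940, plus strand): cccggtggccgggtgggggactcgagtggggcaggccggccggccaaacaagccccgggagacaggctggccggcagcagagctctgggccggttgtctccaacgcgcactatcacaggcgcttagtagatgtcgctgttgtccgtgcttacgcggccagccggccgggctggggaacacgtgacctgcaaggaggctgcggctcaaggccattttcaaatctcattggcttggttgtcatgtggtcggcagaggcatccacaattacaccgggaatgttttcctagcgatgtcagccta

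Of these, Hoxa10 held 1 GGCGCC and the other 4 held neither motif in these windows. Over the 20 Hox promoters, 5 (25%) held GGCGCC against 11.9% of the 32851 promoters in the table, and 6 (30%) held CAGAC on either strand against 49.6%. These counts include the entries with mismatched starts: that of Hoxd3 held GGCGCC, and those of Hoxa3, Hoxa10 and Hoxd11 held CAGAC. The 20 promoters include none of Hoxc, and of Hoxb only Hoxb1 and Hoxb4, so they stand mostly for Hoxa and Hoxd. Hoxd1 held 3 copies of GGCGCC, and its SMAD1/5 mean within 500 bp of the start was -0.64 ± 1.57 (7 probes). The Hox promoters were rich in CpG, with a median of 20 CpG sites against 7 and a GC content of 58.7% against 52.7%. Within 500 bp of its start, Hoxa10 had means of -2.59 ± 2.24, 0.48 ± 1.28 and -0.41 ± 0.09 with SMAD1/5, SMAD2 and SMAD4 (5 probes). In the same order Hoxa9 had -1.01, -0.96 and 1.78 ± 1.51 (4 probes), and Hoxd10 had 1.82 ± 0.84, -0.19 and -0.28 (5 probes). Hoxa5 had -0.79, 0.12 and -1.04 (6 probes), and Hoxa13 had -1.53, 0.08 and 0.09 (4 probes). Hoxa9 and Hoxd10 were chosen for a high window over the start, so their high SMAD4 and SMAD1/5 means follow from that choice.

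The clusters also hold microRNA genes of the miR-10 and miR-196 families, whose products target Hox transcripts, and 5 of them lay within 1000 bp of Hox probes. Their mature sequences (RefSeq, GRCm38.p6; seed in capitals) are shown because 2 seeds serve all 5 genes, in 4 clusters.
mmu-miR-10a-5p: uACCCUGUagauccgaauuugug
mmu-miR-10b-5p: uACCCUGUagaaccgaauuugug
mmu-miR-196a-5p: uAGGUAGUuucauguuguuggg
mmu-miR-196b-5p: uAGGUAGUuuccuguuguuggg

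The miR-10 genes, next to Hoxb4 and Hoxd4, share the seed ACCCUGU, and the miR-196 genes, next to Hoxa9, Hoxb9 and Hoxc9, share AGGUAGU. Probes near mir-10a and mir-10b had SMAD1/5 medians of 1.97 ± 0.57 and 1.59 ± 0.78 (4 probes each), and probes near mir-196b, mir-196a-1 and mir-196a-2 had -2.12 ± 1.34 (5 probes), -0.61 ± 2.52 (6 probes) and -1.09 ± 1.88 (5 probes). With SMAD1/5 both miR-10 medians were above 0 and all miR-196 medians below it, and no window near them passed a z of 1.75. By the centring, 50.0% of all SMAD1/5 probes lay above 0. The SMAD1/5 probes near mir-196a-1 ranged from -6.05 to 1.23. With SMAD2 the medians were -0.88 and 0.34 near mir-10a and mir-10b, and between -0.03 and 0.28 near the others. With SMAD4 they were -0.15 and 1.35, and between -0.20 and 0.64.

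Genes that work with Hox proteins or lie beside the clusters had no enriched window either, counted over lists that earlier results had in view and beside shares of 0%, 0.0658% and 2.49% of all genes, at which few calls would be met in lists this short. Of the PBX, MEIS and PREP cofactors, which bind DNA together with Hox proteins, 0 of 9 measured genes had an enriched window with any antibody. The same held for 6 CDX and ParaHox genes, 8 of 11 listed regulators upstream of Hox genes, 11 of 14 neighbours of the clusters, and 3 genes for geminin and HOX-binding coactivators. The only low call was Cdx4, a caudal homeobox gene that activates posterior Hox genes, with SMAD1/5 (z of -6.28), where 2.62% of all genes had a low window and no Hox gene did. A SMAD4 window at a z of at least 2 was found in 3 of 9 cofactors, 4 of 6 CDX and ParaHox genes, 4 of 8 upstream regulators, 3 of 11 neighbours and 1 of 3 in the last list, beside 40.1% of all genes and 27.3% of Hox genes; the highest was Cdx1, at 3.24. With SMAD2 the counts in the same order were 2, 3, 1, 1 and 0, beside 18.4% and 15.2%, and with SMAD1/5 they were 0, 0, 0, 1 and 0, beside 5.94% and 18.2%.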

How the data were processed

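Each deposited scanner file gives an intensity per spot in 2 channels; per the file headers the intensities come from Agilent Feature Extraction 9.1.3.1 (CGH protocol) for SMAD1/5 and SMAD2 and 9.5.3.1 (ChIP protocol) for SMAD4, so for SMAD4 antibody and software cannot be told apart. Processed intensities were background-subtracted and dye-normalised there, per the file headers. The deposited log2 values of the authors, for which the labels name limma, were used as an alternative; they correlate with the ratio at 0.74 to 0.95, and how they were centred is not stated. The deposited outlier flags (other) removed 1 Hox probe with SMAD1/5 and 15 with SMAD2.

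From these, log2(Cy5/Cy3) was centred per array on the median with Python 3.11.15 (numpy 2.4.6, pandas 2.3.3), and the window code was checked on simulated data. On SMAD1/5, 27.0% and 10.5% of Hox probes carried a surrogate for a channel not above background, against 11.1% and 10.1% with SMAD2 and 0.141% and 0.187% with SMAD4; no Hox spot was saturated. Probe names were updated through RefSeq accessions. Hox genes may be named, and 1 is not reported here by name; the 3 highest and 3 lowest windows per antibody and each cluster's extremes are given in full, that gene's left out. Members and lists were chosen with earlier results of these data known. Alternatives: 1000 bp windows, call thresholds 3 and 5, normexp (limma 3.58.1), loess, the authors' values, bright probes, chromosome centring, input trend, mean input and flagged spots kept.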

Additional observations from a re-analysis of the deposited data

How the results depend on the processing

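The counts of 0 Hox genes held under most alternatives. With SMAD1/5, normexp gave 5 enriched Hox genes of 33 (Hoxa13, Hoxb1, Hoxb5, Hoxb13 and Hoxd11), beside 861 enriched genes in all (5.15%). It also gave 5 low Hox genes (Hoxa4, Hoxa6, Hoxa9, Hoxa10 and Hoxc12), beside 2802 low genes in all (16.8%). With SMAD1/5, 1 low Hox gene each came with a threshold of 3 (Hoxc12, beside 10.1% of all genes) and with loess (Hoxd3, beside 3.13%). With SMAD2, a threshold of 3 gave 2 enriched (Hoxa13 and Hoxb9), beside 1.48% of all genes, and the Hox median was 0.0068 under normexp. With SMAD4, 1 enriched Hox gene came with 1000 bp windows (Hoxc11, z of 4.40), beside 1.65% of all genes. Hoxa10 alone was called with bright probes only (4.01, beside 2.48%) and with chromosome medians as centre (4.00, beside 2.51%). A threshold of 3 gave 3 enriched (Hoxa10, Hoxc11 and Hoxd3), beside 10.7% of all genes, and 2 low (Hoxb13 and Hoxc12), beside 1.22%. With the mean of the 3 inputs the SMAD4 median of Hox probes was 0.013. Removing the trend on the input or using the mean input lowered the highest SMAD4 z of any Hox gene to 2.70 and 2.10, and enriched genes in all from 416 to 3 and 2. Over the alternatives enriched genes in all ran from 0 to 861 (SMAD1/5), 2 to 248 (SMAD2) and 2 to 1785 (SMAD4), and low genes from 29 to 2802, 4 to 839 and 1 to 308. The cause of these shifts was not tested. The SMAD1/5 input was well above background for 72.9% of Hox probes on array 1, against 89.6% with SMAD2 and 100% with SMAD4, and for 89.7%, 90.3% and 99.8% on array 2. No paired analysis was possible because the groups share only replicate number 1 and no result comes from a test.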
